A study of Rattus norvegicus with 18 samples.

Results

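Gene expression was compared between aMSCs and yMSCs at passage 100, that is between mesenchymal stromal cells (MSCs) grown from the bone marrow of 12 months old and of 3 weeks old Sprague Dawley rats after the longest culture of the study. The study isolated the cells from male rats by plastic adherence and expanded both cultures in the same medium, and no group carried an engineered allele or received an agent. RNA of 3 arrays of aMSCs P100 and 3 arrays of yMSCs P100 was hybridised to Illumina RatRef-12 BeadChips, among 18 arrays that also covered passages 2 and 30 (P2 and P30). The genes described are the 8426 whose mean detection p was at most 0.01 in either P100 group, out of 9531 tested genes detected in any of the 6 groups and 22018 genes on the array. The detection p of a gene is the share of negative control beads on the same array that were at least as bright. Of the 8426 genes, 6077 had a gene symbol, 7348 were detected in both groups, 868 in aMSCs P100 alone and 210 in yMSCs P100 alone. The detection limit left Adamtsl3 and Adra1b just inside, with a best group mean of 0.00970, and Asip and Baalc just outside, with 0.0101. The study describes a pair of long-term cultures, and no label says that the 3 arrays of a group came from separate cultures or animals. Donor age and culture therefore cannot be told apart here. The p-values measure only the spread between arrays within a group, estimated over all 6 groups of the 18 arrays.

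MSCs are adherent stromal cells that can form bone, cartilage and fat, and in the marrow they lay down matrix and secrete growth factors and chemokines that act on blood-forming cells. Collagen and elastic fibres give such matrix its strength and recoil, small leucine-rich proteoglycans space the collagen fibrils, and phosphate-binding proteins and enzymes govern its mineralisation. Each passage renews the culture from the cells that attach and divide, and cells of old and young donors are compared to ask which differences of donor age are present after long culture.

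The arrays of aMSCs P100 detected 8218 to 9157 probes, and those of yMSCs P100 detected 7593 to 7985. The median signal of detected probes over that of undetected ones was 4.42 to 5.02 in aMSCs P100 and 4.19 to 5.08 in yMSCs P100. One array of aMSCs P100, replicate 2, stood apart from its group. Over the 8426 genes it had a correlation of 0.976 and 0.960 with replicates 1 and 3, against 0.990 between those. Among yMSCs P100 arrays the correlation was 0.993 to 0.995, and between the groups it was 0.914 to 0.940. List counts that moved by over 1.5 times without replicate 2 are given beside the list. All 6 MSC surface markers on the array were detected in aMSCs P100, and 4 of them in yMSCs P100. Of these, Vcam1, an adhesion molecule for leukocytes, was called higher and Alcam, another adhesion molecule, was called lower, while Cd44, Thy1, Itgb1 and Nt5e were not called. The leukocyte antigen Ptprc and the progenitor antigen Cd34 were not detected, and 1 of 13 macrophage markers was (Cd14, log2 difference -0.35, adjusted p = 0.243). Of the other marker lists, 1 of 5 endothelial genes (Tie1), 1 of 5 epithelial genes (Krt8), 1 of 4 neuronal genes (Stmn2) and 0 of 4 skeletal muscle genes were detected. In RNA from whole cultures, fewer cells of a type and less RNA per cell cannot be told apart.

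At a limma adjusted p under 0.05 and a fold of at least 1.5, 1797 of the 8426 genes differed, which is 21.3%. Of these, 944 genes (11.2%) were higher in aMSCs P100 and 853 (10.1%) were lower, with a median fold of 1.907. By the fitted value, 142 rises and 53 falls reached a fold of at least 4 and 27 rises and 4 falls a fold of at least 16, but 74, 21, 14 and 1 of these genes were undetected on every array of the dimmer group. With such genes taken at lower bounds of their folds, 105 rises and 41 falls reached 4-fold and 20 rises and 3 falls reached 16-fold. Of the 944 rises, 358 were genes detected by mean detection p in aMSCs P100 alone, and of the 853 falls 128 were detected in yMSCs P100 alone. These genes were included only through the group where they were high. Among the 7348 genes detected in both groups 586 (7.97%) rose and 725 (9.87%) fell, with a median log2 difference of -0.07. The values of the 6 arrays did not overlap between the groups for 3877 genes (46%) and for 1770 of the 1797 called genes. The balance of rises and falls depends on the scaling. Scaling each array to its median in place of quantile normalization moved the median log2 difference of the 8426 genes to 0.11 from -0.03 and gave 1267 rises and 505 falls, so that 71.5% of calls were rises against 52.5%. All but 4 of the 944 rises were called again under this scaling, and 505 of the 853 falls.

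Secreted, matrix and membrane proteins were among the largest differences. Aqp1, the water channel of red cells and many epithelia, had log2 signals of 12.45, 12.84 and 12.39 in aMSCs P100 and 4.47, 4.62 and 4.48 in yMSCs P100. It was not detected on any yMSCs P100 array, and so only a bound of its fold can be given, at least 142-fold higher in aMSCs P100 (adjusted p = 9.19e-15). Such a bound sets the mean of the brighter group against the lowest detected signal, or the gene's own where that is higher, on the arrays of the other. Eln, which encodes elastin, the protein of elastic fibres, had 12.06, 12.57 and 11.79 in aMSCs P100 and 4.38, 4.37 and 4.33 in yMSCs P100. It was at least 106-fold higher in aMSCs P100 (adjusted p = 5.42e-07). Aspn, asporin, a small leucine-rich proteoglycan that binds collagen and TGF-beta, had 10.83, 11.02 and 10.77 in aMSCs P100 and 4.56, 4.57 and 4.50 in yMSCs P100. In none of these genes did the groups come near each other, and each was at the level of undetected probes in yMSCs P100. Penk, the precursor of the enkephalin peptides, was detected in both groups, with 13.48, 13.34 and 13.29 in aMSCs P100 and 7.24, 7.54 and 7.03 in yMSCs P100 (log2 difference 6.10, standard error 0.41, adjusted p = 7.52e-09). Aox1, an aldehyde oxidase, had 10.41, 10.73 and 10.32 in aMSCs P100 and 4.38, 4.47 and 4.41 in yMSCs P100, at least 33.7-fold higher. Col6a1, a chain of the beaded-filament collagen VI, had 11.33, 12.13 and 11.04 in aMSCs P100 and 5.64, 5.71 and 5.62 in yMSCs P100, a log2 difference of 5.84 (standard error 0.31). Its highest value was that of replicate 2, and the lowest aMSCs P100 array was still far above all yMSCs P100 arrays.

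Further rises of this size came from genes of growth control, cytokine signalling and bone. Gas2, a protein of growth-arrested cells that links actin and microtubules, had 10.63, 10.77 and 10.54 in aMSCs P100 and 4.79, 5.05 and 4.68 in yMSCs P100 (at least 37.6-fold). Il33, a nuclear cytokine released by damaged barrier cells, had 10.15, 10.56 and 10.15 in aMSCs P100 and 4.73, 4.46 and 4.49 in yMSCs P100 (at least 29.3-fold). Igf2, a fetal growth factor expressed from the paternal allele, had 9.38, 9.54 and 9.71 in aMSCs P100 and 4.43, 4.37 and 4.43 in yMSCs P100 (at least 17.5-fold). All 3 were undetected in yMSCs P100. Mgst1, a membrane glutathione transferase, had 10.73, 10.09 and 11.05 in aMSCs P100 and 5.54, 5.33 and 5.60 in yMSCs P100, a log2 difference of 5.13 (standard error 0.29). The remaining genes among the 15 largest rises were Dmp1 and Tnfrsf11b, described with the osteoblast genes, Pyroxd2, a mitochondrial oxidoreductase-like protein (log2 difference 4.39), the cartilage matrix protein Cilp (at least 10.6-fold) and the membrane-bound chemokine Cx3cl1 (at least 10.2-fold). Scd, the desaturase that makes monounsaturated fatty acids, had a log2 difference of 4.34 (standard error 0.52).

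The falls were led by Cyba, the p22phox membrane subunit shared by several NADPH oxidases. Its log2 signals were 5.79, 5.08 and 6.13 in aMSCs P100 and 11.67, 11.68 and 11.70 in yMSCs P100, a log2 difference of -6.02 (standard error 0.22, adjusted p = 3.97e-12). It was detected on all 6 arrays, and the yMSCs P100 arrays differed among themselves by far less than the groups did. Wfdc1, a secreted protein of the whey acidic protein family, had 5.46, 5.12 and 5.84 in aMSCs P100 and 10.90, 10.97 and 10.82 in yMSCs P100 (log2 difference -5.42, standard error 0.26). Pkp2, plakophilin 2, which anchors desmosomes to intermediate filaments, had 5.91, 5.22 and 5.93 in aMSCs P100 and 10.80, 10.73 and 10.59 in yMSCs P100 (log2 difference -5.02, standard error 0.34). Replicate 2 had the lowest aMSCs P100 value of all 3 genes. Celf4, an RNA-binding protein best known from neurons, had 4.70, 4.43 and 4.38 in aMSCs P100 and 9.00, 9.28 and 8.97 in yMSCs P100. It was undetected in aMSCs P100 and at least 15.8-fold lower there. Rnf113a2, a RING finger protein gene, was at least 10.2-fold lower and Cgref1, a secreted calcium-binding growth regulator, at least 7.86-fold lower. The other large falls included Nes, the intermediate filament nestin of progenitor cells (log2 difference -3.31, standard error 0.21), the proprotein convertase Pcsk6 (-3.10, standard error 0.33) and Pon2, an intracellular lactonase (-2.84, standard error 0.13). The metallothionein Mt1 had 7.86, 7.88 and 9.50 in aMSCs P100 and 11.08, 11.07 and 10.95 in yMSCs P100, with replicate 3 nearer to yMSCs P100 than the other two (log2 difference -2.62, standard error 0.39).

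**Figure D1:**
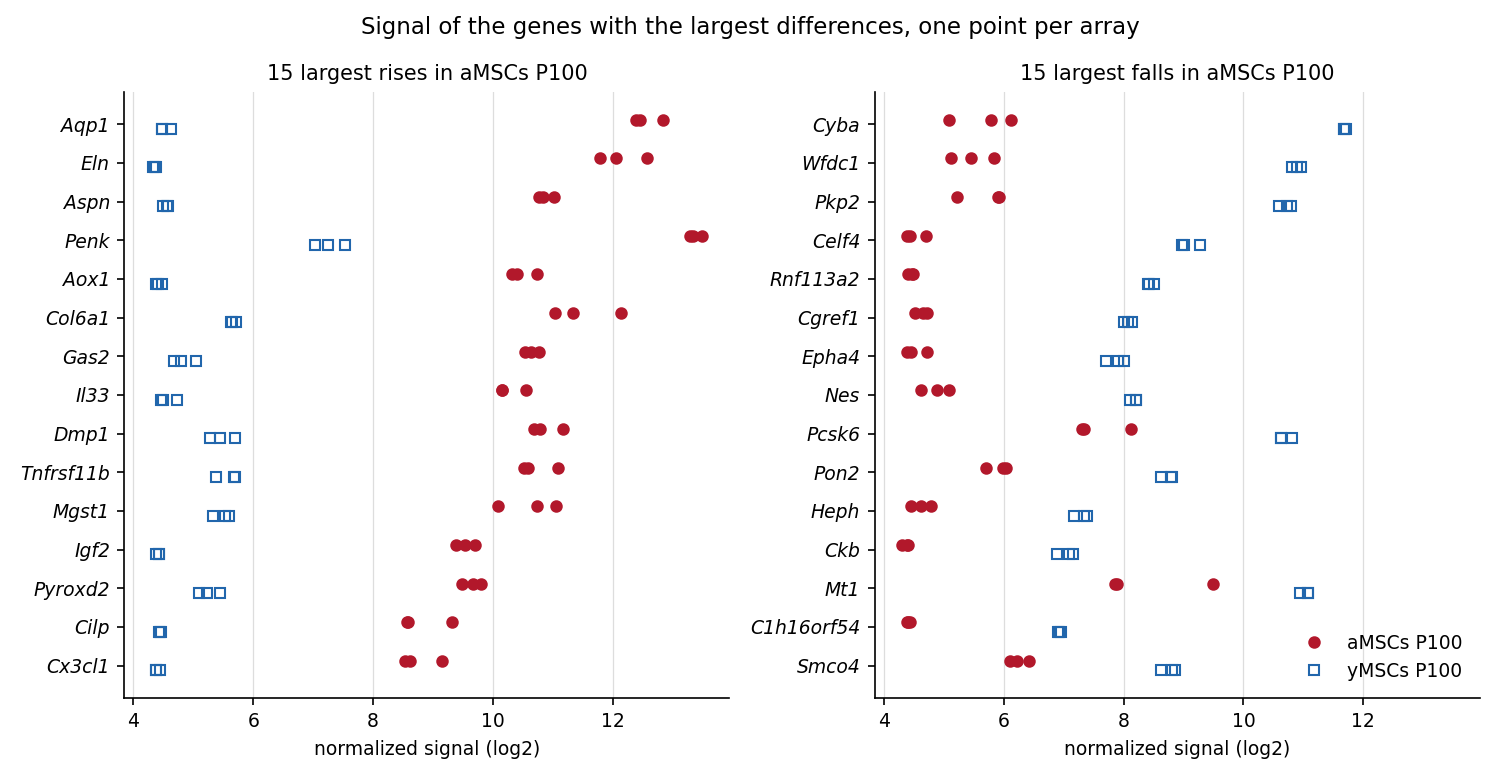
Normalized log2 signal (x axis) of the 15 genes with the largest rises (left) and the 15 with the largest falls (right), with 1 filled circle per aMSCs P100 array and 1 open square per yMSCs P100 array. Only called genes whose arrays did not overlap between the groups could enter, so the groups are apart in all 30 genes by choice. For Aqp1 the aMSCs P100 arrays lie between 12.39 and 12.84 and the yMSCs P100 arrays between 4.47 and 4.62.

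The promoters of the 3 largest rises and 3 largest falls with an entry in the RefSeq promoter table are shown. The share of CpG-rich promoters differed between the rises and the genes not called. Each runs from 250 bases before to 50 bases after the annotated start in build GRCr8, 5′ to 3′ on the gene's strand, with CpG dinucleotides in capitals. The first 3 belong to genes that rose and the last 3 to genes that fell in aMSCs P100. They lie at chr4:85812534-85812833 (Aqp1, plus strand), chr17:15310420-15310719 (Aspn, minus strand), chr9:67073641-67073940 (Aox1, plus strand), chr19:67404165-67404464 (Cyba, minus strand), chr6:109794544-109794843 (Rnf113a2, plus strand) and chr6:31151545-31151844 (Cgref1, plus strand).
Aqp1: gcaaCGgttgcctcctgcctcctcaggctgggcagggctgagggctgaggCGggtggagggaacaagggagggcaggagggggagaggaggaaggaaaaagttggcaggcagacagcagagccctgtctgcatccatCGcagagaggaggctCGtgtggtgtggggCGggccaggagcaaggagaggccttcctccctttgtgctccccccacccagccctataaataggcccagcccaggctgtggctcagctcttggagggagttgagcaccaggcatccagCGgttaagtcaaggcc
Aspn: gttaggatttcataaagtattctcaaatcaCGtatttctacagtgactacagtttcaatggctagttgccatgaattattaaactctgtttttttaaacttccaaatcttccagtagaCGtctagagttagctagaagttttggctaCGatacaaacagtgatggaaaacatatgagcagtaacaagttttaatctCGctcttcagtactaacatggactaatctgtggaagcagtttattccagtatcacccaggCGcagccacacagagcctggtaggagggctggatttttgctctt
Aox1: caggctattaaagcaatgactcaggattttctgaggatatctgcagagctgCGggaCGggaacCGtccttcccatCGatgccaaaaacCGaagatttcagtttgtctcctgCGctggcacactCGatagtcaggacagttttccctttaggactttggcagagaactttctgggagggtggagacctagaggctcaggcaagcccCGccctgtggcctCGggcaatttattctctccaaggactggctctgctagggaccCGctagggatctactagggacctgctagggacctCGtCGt
Cyba: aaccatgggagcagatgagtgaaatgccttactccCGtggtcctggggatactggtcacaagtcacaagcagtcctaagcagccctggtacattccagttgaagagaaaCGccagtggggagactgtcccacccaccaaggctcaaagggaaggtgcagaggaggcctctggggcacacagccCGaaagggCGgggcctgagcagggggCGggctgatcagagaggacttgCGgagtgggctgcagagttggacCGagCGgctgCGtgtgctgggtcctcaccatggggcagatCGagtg
Rnf113a2: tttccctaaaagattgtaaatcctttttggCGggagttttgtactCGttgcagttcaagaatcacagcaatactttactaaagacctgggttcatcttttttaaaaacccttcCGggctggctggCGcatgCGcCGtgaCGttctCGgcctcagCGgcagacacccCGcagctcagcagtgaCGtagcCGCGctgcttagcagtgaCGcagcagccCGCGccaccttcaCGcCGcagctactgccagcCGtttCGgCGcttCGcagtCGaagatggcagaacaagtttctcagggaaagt
Cgref1: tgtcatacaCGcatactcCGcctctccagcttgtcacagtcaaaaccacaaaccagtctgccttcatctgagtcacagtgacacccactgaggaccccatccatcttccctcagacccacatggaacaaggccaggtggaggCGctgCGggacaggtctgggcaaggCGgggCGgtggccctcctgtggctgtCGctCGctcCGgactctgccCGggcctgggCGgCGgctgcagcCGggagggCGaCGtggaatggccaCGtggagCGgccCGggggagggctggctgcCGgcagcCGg

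These windows hold 6, 5 and 12 CpG dinucleotides in Aqp1, Aspn and Aox1, and 10, 23 and 20 in Cyba, Rnf113a2 and Cgref1. The observed over expected CpG ratio was 0.202 in Aqp1 and 1.044 in Rnf113a2, the ends of the 6. Promoters matched 5136 of the 6077 named genes. A ratio of at least 0.6 was found in 341 of 574 promoters of genes called higher (59.4%), in 386 of 506 of genes called lower (76.3%) and in 3232 of 4056 of genes not called (79.7%), against 36.9% of the 27457 promoters of the table. Among fitted rises of at least 4-fold it was 35 of 86 (40.7%), and among falls of that size 17 of 26 (65.4%). Of these sets by call, CpG-rich promoters were thus less frequent among the genes that rose, and least frequent among the largest rises. Genes detected in 1 group only also held fewer, 46 of 93 in aMSCs P100 (49.5%) and 9 of 17 in yMSCs P100 (52.9%). Of the 170 genes detected in aMSCs P100 only, 166 were themselves called higher. Outside the rises, a share under 59.4% was thus found among these sets only in the 17 promoters of genes detected in yMSCs P100 only. No test was run. A search of both strands covered 5 motifs. The AP-1 element TGACTCA was present in 4.36% of promoters of genes called higher, 5.14% of those called lower, 2.86% of those not called and 4.53% of all promoters, and in 11 of 86 fitted rises of at least 4-fold (12.8%). It was present in 1 of 26 falls of that size (3.85%), in 5 of 93 genes detected in aMSCs P100 only (5.38%) and in 3 of 17 detected in yMSCs P100 only (17.6%), so that its share had no single order. The TATA box TATAAA was present in 6.62%, 8.1% and 6.61% of the same 3 sets and in 14.3% of all promoters, and the GC box GGGCGG in 62.9%, 62.8% and 65.1% and in 34.9% of all promoters. The E box CACGTG was present in 5.92% of promoters of genes called higher, 11.9% of those called lower, 10.3% of those not called and 6.65% of all. The CArG box was present in 1.57%, 0.791% and 1.23% of the 3 sets and in 1.64% of all. In the sequences shown, Aqp1 holds a GC box at -87 and a TATA box at -30 from the start, Aox1 an AP-1 element at -234 and a GC box on the other strand at -46, Cyba GC boxes at -62 and -44, and Cgref1 an AP-1 element on the other strand at -182, GC boxes at -81 and -30 and an E box at 9. No match was found in Aspn and Rnf113a2.

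Some genes were read above the negative beads in 1 culture only. With a detection p of at most 0.01 on all 3 arrays of one group and over 0.05 on all 3 of the other, 170 genes were detected in aMSCs P100 only and 28 in yMSCs P100 only. The brightest of the 170 were Aqp1, Eln, Aspn, Aox1, Il33 and Igf2, and the brightest of the 28 were Celf4, Rnf113a2, Cgref1, Epha4, Ckb and Ctsw. Epha4, a receptor of ephrins, had 4.46, 4.38 and 4.73 in aMSCs P100 and 7.71, 8.01 and 7.91 in yMSCs P100 (at least 6.83-fold lower). Ckb, the creatine kinase of brain and smooth muscle, was at least 3.85-fold lower and the cathepsin Ctsw at least 3.56-fold lower. Most of the 170 were dim, and aMSCs P100 arrays also detected more probes than yMSCs P100 arrays, whose part in the count was not tested.

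The genes called among the brightest differed by small folds. Gja1, connexin 43 of gap junctions, had 13.72, 13.93 and 13.48 in aMSCs P100 and 12.70, 12.56 and 12.69 in yMSCs P100 (log2 difference 1.06, standard error 0.17). Pmepa1, a membrane protein induced by TGF-beta that restrains its signalling, had 12.44, 12.08 and 12.69 in aMSCs P100 and 13.80, 13.69 and 13.67 in yMSCs P100 (log2 difference -1.32, standard error 0.14). The groups did not overlap in either gene. Vim, the intermediate filament vimentin, rose by 0.66 on the log2 scale and Itm2b, a membrane protein cleaved by furin, by 0.93, and the nucleoside diphosphate kinase Nme2 fell by 0.65, a call lost without aMSCs P100 replicate 2 and with median scaling.

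Matrix genes held several of the largest rises. Rises were called for 6 of the 8 detected small leucine-rich proteoglycans and falls for none. Their median log2 difference was 2.08, against 11.2% called higher and a median of -0.03 over all 8426 genes. The same median with undetected genes set at their bounds was 1.10. Of the 8 genes, 5 were detected in aMSCs P100 alone and so were included through the group where they were high, and of the 3 detected in both groups 2 rose. Fmod, fibromodulin, which governs collagen fibril thickness, had 9.63, 10.33 and 9.54 in aMSCs P100 and 6.18, 5.67 and 5.62 in yMSCs P100 (log2 difference 4.01, standard error 0.40). Ogn, osteoglycin, a proteoglycan of bone and cornea, had 12.04, 12.43 and 11.89 in aMSCs P100 and 9.75, 9.73 and 9.95 in yMSCs P100 (log2 difference 2.31, standard error 0.23). Omd, osteomodulin, and Lum, lumican, were detected in aMSCs P100 alone and at least 2.48-fold and 1.84-fold higher. Dcn, decorin, was dim, with 5.14, 5.25 and 5.62 in aMSCs P100 and 4.36, 4.37 and 4.31 in yMSCs P100, and it lost its call without aMSCs P100 replicate 3 or without any 1 of the yMSCs P100 arrays. Bgn and Prelp were not called, with log2 differences of 0.38 and 0.21 (adjusted p = 0.0682 and 0.611). The counts of this list were the same without aMSCs P100 replicate 2.

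Of 13 detected collagen chains, 3 rose and 2 fell, with a median of 0.27 (0.175 without aMSCs P100 replicate 2). Besides Col6a1, Col3a1, the fibrillar chain of distensible tissues, had 12.43, 12.98 and 12.43 in aMSCs P100 and 10.43, 10.23 and 10.32 in yMSCs P100 (log2 difference 2.28, standard error 0.28). Col11a2, a minor fibrillar chain of cartilage, fell by 0.78 on the log2 scale, a call lost with median scaling. Of 15 elastic fibre genes, 6 rose and 2 fell, with a median of 0.53, and of the 11 detected in both groups 2 rose and 2 fell, with a median of 0.02. Fbn2, the fibrillin of developing tissue, was at least 4.00-fold higher in aMSCs P100 and undetected in yMSCs P100, while Fbn1, the fibrillin of adult tissue, had 7.75, 7.88 and 7.38 in aMSCs P100 and 8.58, 8.50 and 8.44 in yMSCs P100 (log2 difference -0.84, adjusted p = 0.0242), a call lost without aMSCs P100 replicate 3 or any 1 of the yMSCs P100 arrays. Fbln1, fibulin 1, fell by 1.23 on the log2 scale. Without aMSCs P100 replicate 2 the elastic fibre counts were 5 and 4, with a median of 0.25, and without yMSCs P100 replicate 2 they were 3 and 1. Both fibrillins thus differed in opposite directions, and the rises of this list were not common to all its genes.

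Of 19 other matrix glycoproteins, 7 rose and 5 fell, and of the 17 detected in both groups 5 rose and 5 fell. Over all genes detected in both groups 7.97% rose and 9.87% fell. Postn, periostin, a matricellular protein of periosteum and tendon, had 10.35, 11.13 and 10.47 in aMSCs P100 and 6.46, 6.57 and 6.86 in yMSCs P100 (log2 difference 4.01, standard error 0.22). Thbs2, thrombospondin 2, which restrains vessel growth, was at least 10.4-fold higher and undetected in yMSCs P100. Lama5, a laminin chain of basement membranes, had 7.89, 8.33 and 7.68 in aMSCs P100 and 9.74, 9.62 and 9.61 in yMSCs P100 (log2 difference -1.69, standard error 0.30). Vcan, the large proteoglycan versican, fell by 1.21 on the log2 scale. Of 19 matrix proteases and inhibitors, 8 rose and 3 fell, with a median of 0.60 (0.38 without aMSCs P100 replicate 2), and of the 15 detected in both groups 5 rose and 3 fell. Adamts2, which trims procollagen, was at least 2.97-fold higher in aMSCs P100, and Adamts5, which cleaves aggrecan, had a log2 difference of 1.86 (standard error 0.31). Their relatives Adamts7 and Adamts12 went the other way, with -1.49 (standard error 0.30) and -1.08 (standard error 0.20). Mmp14, the membrane collagenase, was bright in both groups and rose by 0.83.

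**Figure D2:**
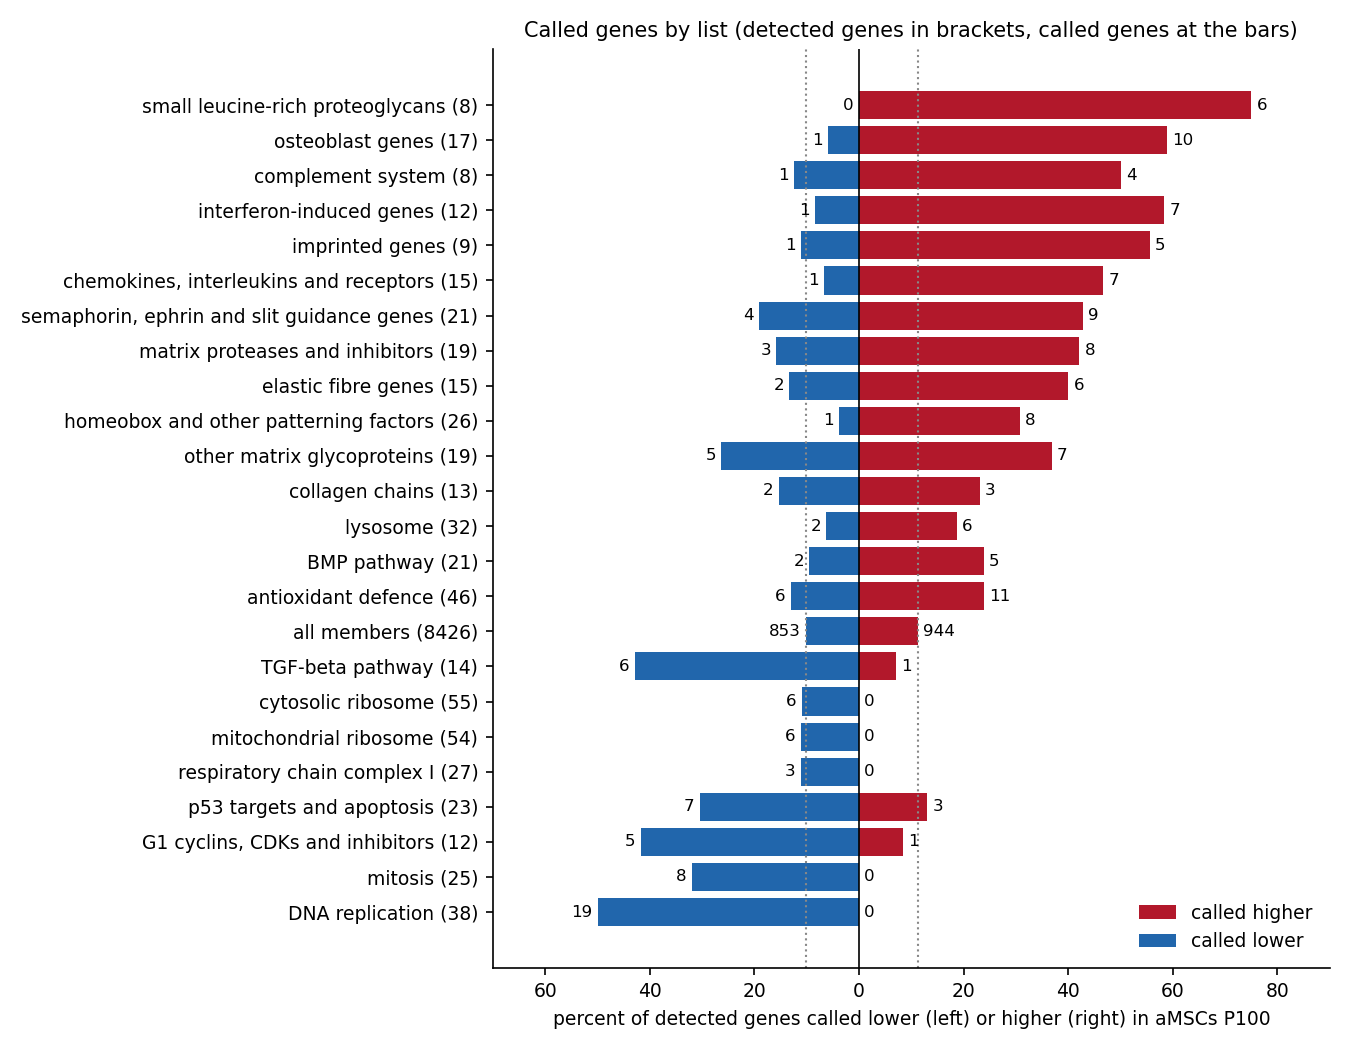
Percent of the detected genes of a list that were called higher (red, to the right) or lower (blue, to the left) in aMSCs P100. The number called stands at each bar and the number detected in brackets, and dotted lines mark the 11.2% and 10.1% of all 8426 genes. The lists shown are a choice from 55. Lists left out include focal adhesion proteins, of which 1 rose and 2 fell of 21. The proteoglycan list reaches 6 of 8 higher and the DNA replication list 19 of 38 lower.

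Of 17 detected osteoblast genes, 10 rose and 1 fell, against 11.2% and 10.1% of all 8426 genes. Their median log2 difference was 1.33 (0.57 with undetected genes at their bounds). Of the 17, 7 were detected in aMSCs P100 alone. Of the 10 detected in both groups 4 rose and 1 fell, with a median of 0.26, against 7.97% and 9.87% of all genes detected in both. Dmp1, a phosphoprotein of osteocytes that seeds mineral, had 10.68, 11.17 and 10.78 in aMSCs P100 and 5.69, 5.28 and 5.44 in yMSCs P100 (log2 difference 5.40, standard error 0.29). Tnfrsf11b, osteoprotegerin, the decoy that blocks osteoclast formation, had 10.58, 11.08 and 10.52 in aMSCs P100 and 5.70, 5.37 and 5.68 in yMSCs P100 (log2 difference 5.15, standard error 0.25). Cdh11, the cadherin of osteoblasts, had 8.32, 8.81 and 8.30 in aMSCs P100 and 5.10, 4.91 and 4.96 in yMSCs P100 (at least 8.38-fold). In each of the 3 the aMSCs P100 arrays were well clear of the yMSCs P100 arrays. Dlx5, a homeobox factor that drives osteoblast genes, was at least 2.65-fold higher. Phex, a peptidase of bone cells, and Pth1r, the parathyroid hormone receptor, were at least 1.22-fold and 1.48-fold higher, and Spp1, osteopontin, had a log2 difference of 1.56. The list was not uniform, since Alpl and Col1a1, which osteoblasts express throughout their maturation, were not called and Alcam fell by 2.17 on the log2 scale. Of the 22 osteoblast genes on the array, Sp7, Bglap, Ibsp, Dlx3 and Phospho1 did not pass detection in either P100 group. Without replicate 2 the counts were again 10 and 1. Markers of the other fates were few or mixed. Of 10 adipocyte genes 2 rose and 1 fell, with Lpl, lipoprotein lipase, at least 1.44-fold higher and Cd36, a fatty acid receptor, at least 1.49-fold lower. Of the 11 cartilage genes on the array 2 were detected, Acan with a log2 difference of 1.08 and Hapln1 with -0.92, and of 9 smooth muscle genes Actg2 rose by 1.45 and Tpm1 fell by 1.34.

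The ligands and brakes of bone morphogenetic protein (BMP) signalling, which drives bone formation, were followed in 21 detected genes, of which 5 rose and 2 fell (median -0.01, and 0.15 with median scaling). Without aMSCs P100 replicate 2 the counts were 4 and 1. The ligand Bmp2 had 6.75, 6.90 and 6.71 in aMSCs P100 and 4.49, 4.55 and 4.60 in yMSCs P100. It was undetected in yMSCs P100 and at least 2.59-fold higher in aMSCs P100 (adjusted p = 6.44e-08). The receptor Bmpr1a had 7.38, 7.53 and 7.56 in aMSCs P100 and 7.09, 7.00 and 7.09 in yMSCs P100 and missed the call (log2 difference 0.43, adjusted p = 0.0685), and Bmpr2 had -0.01 (standard error 0.23). Bmp6 and Bmpr1b did not pass detection in either P100 group. The secreted antagonists Grem1 and Fst had log2 differences of 1.53 and 0.85, and Chrd was at least 1.62-fold higher. Of the Id proteins that BMP signals induce, Id2 had 9.18, 8.58 and 9.17 in aMSCs P100 and 6.59, 6.50 and 6.98 in yMSCs P100 (log2 difference 2.28, standard error 0.30), and Id1 had 8.24, 7.40 and 8.40 in aMSCs P100 and 9.89, 10.14 and 9.76 in yMSCs P100 (log2 difference -1.92, standard error 0.38). Both Id genes were separated between the groups, in opposite directions.

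In the TGF-beta pathway, which promotes matrix production, 1 of 14 genes rose and 6 fell, while the median was 0.07. Tgfb3, a ligand, had 9.33, 10.01 and 9.33 in aMSCs P100 and 11.24, 11.14 and 11.10 in yMSCs P100 (log2 difference -1.60, standard error 0.25). Besides Pmepa1, the ligand Tgfb2 (-0.77), the secreted target Tgfbi (-0.67), the inhibitory Smad7 (-0.63) and the corepressor Tgif1 (-0.60) fell by less, and Ltbp1, which holds latent TGF-beta in the matrix, rose by 0.81. Without aMSCs P100 replicate 2 the counts were 1 and 4, without its replicate 3 there were 3 falls, and with median scaling the counts were 1 and 3. Smad7 lost its call whichever P100 array was left out, and Ltbp1 without yMSCs P100 replicate 2. Of 19 Wnt pathway genes 5 rose and 2 fell. The receptors Fzd1 and Fzd8 rose by 1.97 (standard error 0.16) and 1.32 (standard error 0.18), while Wif1, a secreted inhibitor that binds Wnt proteins, was at least 4.78-fold lower and undetected in aMSCs P100. The coreceptors Lrp5 and Lrp6 had log2 differences of -1.02 and 1.06. Of 7 Notch pathway genes, the receptor Notch1 and the ligand Jag1 were called higher (0.88 and 0.83). Notch1 kept its call only when aMSCs P100 replicate 3 was the array left out, and Jag1 lost its call without that array or yMSCs P100 replicate 1 or 3. Both directions were thus found among the receptors and antagonists of the Wnt list.

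Of 23 genes of insulin and IGF signalling 4 rose and 2 fell, against 11.2% and 10.1% of all 8426 genes. Of the 18 detected in both groups 1 rose and 1 fell (5.56% each), against 7.97% and 9.87% of all genes detected in both. Igfbp6, which binds IGF2 in preference to IGF1, had 10.79, 9.84 and 10.88 in aMSCs P100 and 7.94, 7.70 and 7.73 in yMSCs P100 (log2 difference 2.72, standard error 0.35). Together with Igf2 it was the largest rise of this list, and Pik3cb, a catalytic PI3-kinase subunit, was at least 2.01-fold lower. Of 26 MAPK pathway genes 2 rose and 4 fell, and of the 23 detected in both groups 1 rose and 4 fell. Egr1, an immediate early transcription factor, rose by 1.45 (standard error 0.23), while Fosl1, an AP-1 subunit, and Dusp6, a phosphatase of ERK, fell by 1.76 (standard error 0.26) and 1.27 (standard error 0.25). Of 20 growth factors and receptors 4 rose and 5 fell, and of the 15 detected in both groups 2 rose and 3 fell. Pdgfra, the PDGF receptor of mesenchymal cells, had 10.47, 10.92 and 10.09 in aMSCs P100 and 8.78, 8.71 and 8.71 in yMSCs P100 (log2 difference 1.76, standard error 0.28). Vegfc, a growth factor of lymphatic vessels, had 6.60, 6.52 and 6.79 in aMSCs P100 and 8.22, 8.26 and 8.12 in yMSCs P100 (log2 difference -1.56, standard error 0.21). Hbegf, an EGF receptor ligand, fell by 1.35 and Vegfa by 1.00. The ligands for the EGF and VEGF receptors that were called were lower, and the receptors Pdgfra, Egfr and Fgfr2 were called higher. For Egfr and Fgfr2 only bounds of at least 1.11-fold and 1.17-fold can be given. Ligands of the FGF family went both ways, with Fgf7 at 0.92 and Fgf2 at -1.09 on the log2 scale.

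Of 15 detected chemokines, interleukins and their receptors, out of 56 on the array, 7 rose and 1 fell, with a median of 0.53, and of the 10 detected in both groups 4 rose and none fell. Over all 8426 genes 11.2% rose and 10.1% fell, and over all genes detected in both groups 7.97% and 9.87% did. After Il33 and Cx3cl1, Cxcl12, which holds blood-forming cells in the marrow, had a log2 difference of 2.53, Il11ra1, the interleukin 11 receptor, 1.78 and Il1rl1, the receptor of IL-33, 1.30. Both the ligand Il33 and its receptor were therefore higher in aMSCs P100. Cxcl10, an interferon-induced chemokine, had 4.54, 4.72 and 4.65 in aMSCs P100 and 5.88, 6.18 and 5.79 in yMSCs P100 (at least 1.80-fold lower). It was the only fall among 12 interferon-induced genes, of which 7 rose, with a median of 0.68, and of the 9 detected in both groups 6 rose. Ifitm3, which blocks entry of viruses, had 12.53, 12.06 and 12.93 in aMSCs P100 and 10.90, 10.95 and 10.92 in yMSCs P100 (log2 difference 1.58, standard error 0.18), and the regulator Irf7 rose by 1.07 (standard error 0.22). Of 8 complement genes 4 rose and 1 fell, and of the 4 detected in both groups 2 rose and 1 fell. The proteases C1r and C1s that start the classical pathway rose, C1r by 2.24 and C1s at least 3.54-fold, as did Clu, clusterin, a chaperone that binds the terminal complex, with 11.82, 11.69 and 11.69 in aMSCs P100 and 8.93, 8.72 and 8.89 in yMSCs P100. Cd55, which breaks down complement convertases on the cell surface, had 7.41, 7.78 and 7.27 in aMSCs P100 and 8.48, 8.46 and 8.53 in yMSCs P100 (adjusted p = 0.0108). Of 18 antigen presentation genes 4 rose and none fell (3 and none without replicate 2), while of the 15 detected in both groups 1 rose. Among the 4 were the peptide transporter Tap2 (at least 1.54-fold) and the immunoproteasome subunit Psmb8 (at least 1.78-fold). The macrophage list had Cd14 as its only detected gene, without a call. The chemokine and complement counts were the same without replicate 2. The interferon rises were 6 without it, 3 without aMSCs P100 replicate 1 and 4 without yMSCs P100 replicate 1.

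Redox genes differed in both directions. Of the 4 detected genes of NADPH oxidases, Cyba alone was called, and Nox4, Rac1 and Rac2 had log2 differences of -0.36, -0.23 and -0.28 (adjusted p = 0.516, 0.35 and 0.636). Of 46 antioxidant genes 11 rose and 6 fell (11 fell without aMSCs P100 replicate 3), with a median of -0.07 that was 0.01 with median scaling. Sod3, the extracellular superoxide dismutase, had 7.39, 7.14 and 7.40 in aMSCs P100 and 4.29, 4.30 and 4.36 in yMSCs P100 (at least 3.73-fold). Nqo1, a quinone reductase under Nrf2 control, had 9.95, 9.57 and 9.90 in aMSCs P100 and 10.96, 11.10 and 11.03 in yMSCs P100 (log2 difference -1.22, standard error 0.27). The groups did not overlap in either gene. The glutathione transferases were divided, as Mgst1, Mgst3, Gstt1 and Gstt2 had log2 differences of 5.13, 1.41, 0.92 and 1.24, and Gsto1 and Gstp1 had -0.96 and -0.83.

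Nuclear genes of the mitochondrion had small differences whose counts moved with single arrays. Of 27 genes of respiratory complex I none rose and 3 fell (median -0.43), of 29 of complexes II to IV and ATP synthase none rose and 4 fell (median -0.28), and of 54 of the mitochondrial ribosome none rose and 6 fell (median -0.31), shares of falls near the 10.1% of all genes. Cox8a, a subunit of cytochrome c oxidase, had 10.90, 10.82 and 11.83 in aMSCs P100 and 12.25, 12.17 and 12.25 in yMSCs P100 (log2 difference -1.04, standard error 0.23). Without aMSCs P100 replicate 2 the falls were 0, 1 and 1 with medians of -0.19, -0.09 and -0.09, and 1 gene of the mitochondrial ribosome rose, while with median scaling the falls were 0, 1 and 1 with medians of -0.30, -0.22 and -0.17. Without aMSCs P100 replicate 3 they were 15, 11 and 16. The cytosolic ribosome had 0 rises and 6 falls of 55, with 3 falls without replicate 2 and 15 without replicate 3 of aMSCs P100. The largest was that of Rplp2, an acidic stalk protein, with 5.26, 5.10 and 5.95 in aMSCs P100 and 7.77, 7.72 and 7.48 in yMSCs P100. Ribosomal protein genes have many near-identical copies in the genome, and a probe may read several of them.

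Falls without a rise were found among the genes that copy DNA. Of 38 detected DNA replication genes, all of them detected in both groups, none rose and 19 fell, against 10.1% of all genes, with a median of -0.62. Orc1, the largest subunit of the origin recognition complex, had 6.24, 6.52 and 5.91 in aMSCs P100 and 7.74, 7.56 and 7.83 in yMSCs P100 (log2 difference -1.49, standard error 0.21, adjusted p = 6.14e-05). Cdt1, which loads the replicative helicase, had 5.34, 5.55 and 5.15 in aMSCs P100 and 6.50, 6.74 and 6.50 in yMSCs P100 (log2 difference -1.23, adjusted p = 0.0123). Fen1, the flap endonuclease of lagging strands, had -1.16, the helicase subunits Mcm3 and Mcm7 -1.04 and -0.97, and the sliding clamp Pcna -0.60. Mcm2, Mcm4, Mcm5 and Mcm6 were not called. Of 25 mitosis genes none rose and 8 fell, with a median of -0.48. Cdc20, an activator of the anaphase-promoting complex, had 8.32, 8.24 and 8.04 in aMSCs P100 and 9.63, 9.75 and 9.58 in yMSCs P100 (log2 difference -1.45, standard error 0.25). Ube2c, the ubiquitin-conjugating enzyme of that complex, fell by 1.40 (standard error 0.33), and the proliferation marker Mki67 was not called, with -0.25. Without replicate 2 the falls were 15 of 38 and 5 of 25, with medians of -0.68 and -0.65, and with median scaling they were 15 and 4. The mitosis falls were 4 without yMSCs P100 replicate 1 and 5 without aMSCs P100 replicate 1 or yMSCs P100 replicate 2 or 3.

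**Figure D3:**
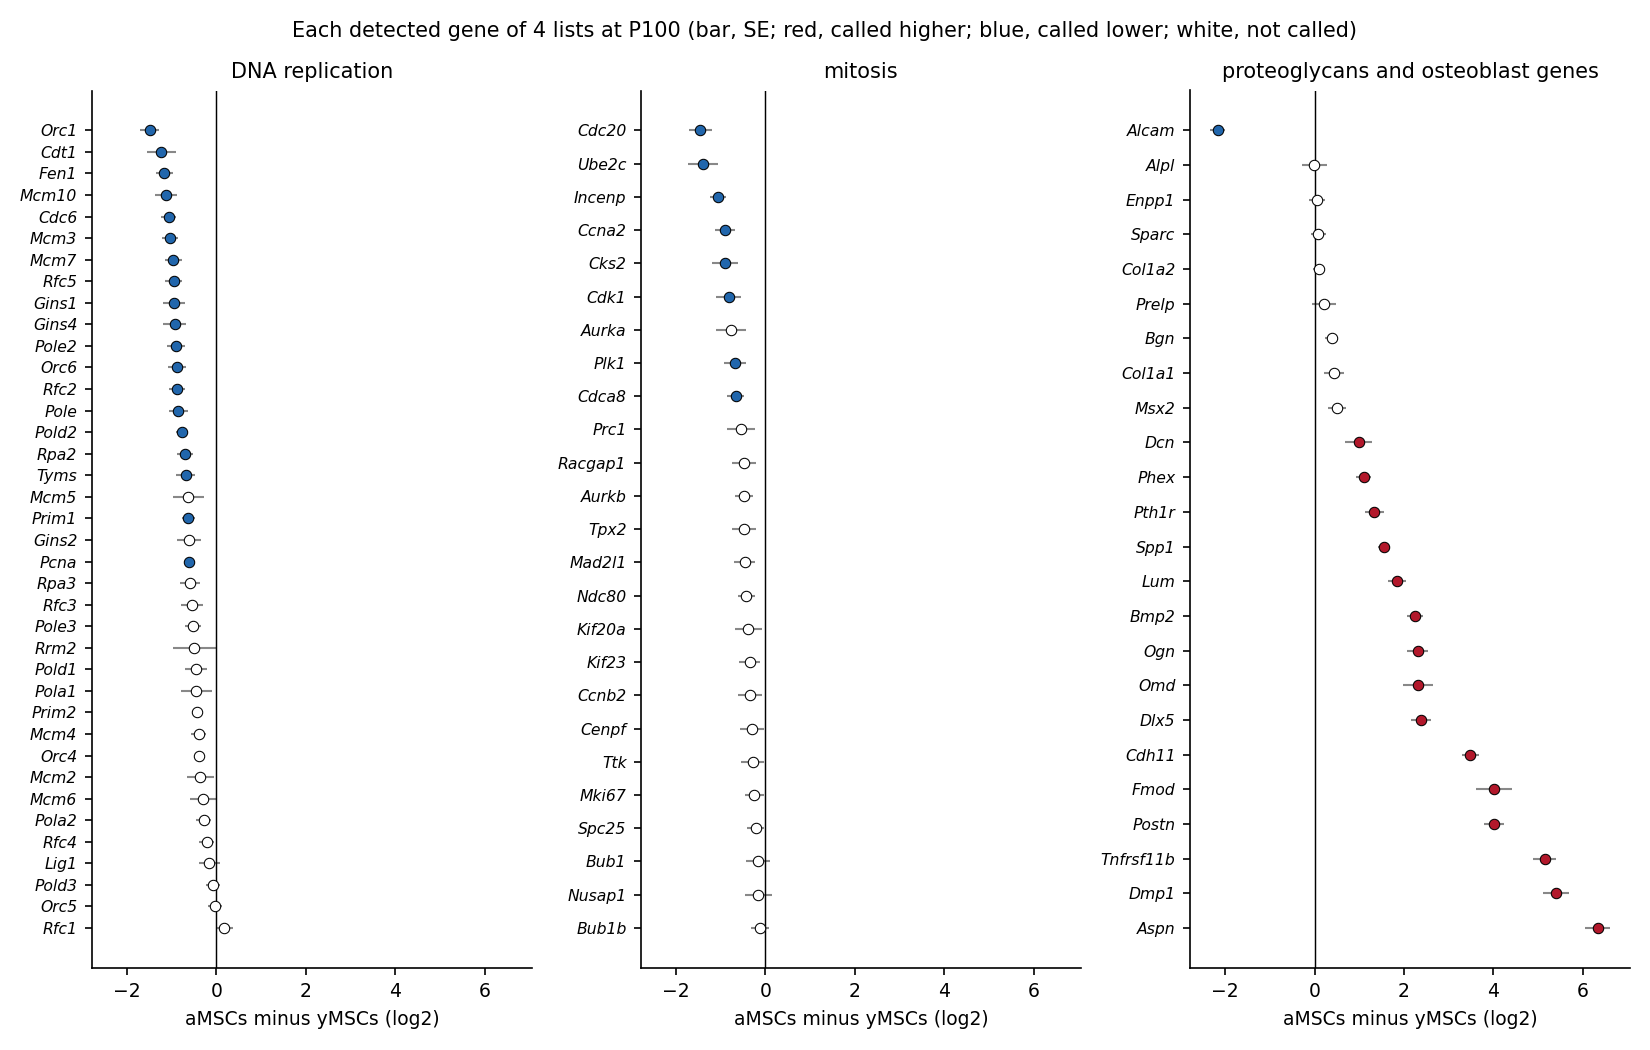
Log2 difference between aMSCs P100 and yMSCs P100 (x axis, bar for the standard error) of each detected gene of the DNA replication list (left), the mitosis list (middle) and the proteoglycan and osteoblast lists (right), in red where called higher, blue where called lower and white where not called. All replication genes but Rfc1, at 0.18, lie left of 0, and Aspn, at 6.33, is farthest to the right.

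Regulators of the cell cycle and of cell death fell with them in part. Of 12 genes of G1 cyclins, their kinases and inhibitors, 1 rose and 5 fell (2 with median scaling, 3 without aMSCs P100 replicate 3). Cdkn1a, the p21 inhibitor, had 5.44, 5.07 and 5.22 in aMSCs P100 and 6.70, 6.93 and 7.03 in yMSCs P100 (log2 difference -1.65, standard error 0.23, adjusted p = 5.03e-05). Cdkn2a was not analysed here. Of 23 p53 targets and apoptosis genes 3 rose and 7 fell, and of the 20 detected in both groups 1 rose and 6 fell. Fas, a death receptor, had 5.78, 5.86 and 5.46 in aMSCs P100 and 7.56, 7.65 and 7.61 in yMSCs P100 (log2 difference -1.91, standard error 0.14), and the stress protein Gadd45g fell by 2.19 (standard error 0.27). Casp1, the inflammatory caspase, was at least 2.73-fold higher and Sesn1, a stress-induced regulator of mTOR, rose by 1.59 (standard error 0.22). Of 25 DNA repair genes 2 rose and 3 fell (1 fell without yMSCs P100 replicate 2), with Ercc1, a subunit of an excision nuclease, at -1.02 and Rad52, a recombination protein, at 0.65. Of 15 DNA methylation and Polycomb enzymes Dnmt3a and Ezh2 alone were called, at -0.65 and -0.64, and neither was called with median scaling. Dnmt3a also lost its call without any 1 array other than aMSCs P100 replicate 3, and Ezh2 without aMSCs P100 replicate 1 or yMSCs P100 replicate 3.

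Genes of adhesion, shape and junctions differed gene by gene. Of 7 detected genes of the integrin list, which includes the integrin-like Itgbl1, 2 rose and 1 fell. Their median of -0.03 was -0.33 without aMSCs P100 replicate 2, when 1 rose and 1 fell. Itga7, the laminin-binding chain of muscle, had 6.97, 7.52 and 6.82 in aMSCs P100 and 9.59, 9.64 and 9.39 in yMSCs P100 (log2 difference -2.44, standard error 0.24). Itgbl1, a secreted protein with integrin-like repeats, was at least 7.86-fold higher. Itga5, the fibronectin receptor chain, had 9.28, 10.27 and 8.93 in aMSCs P100 and 8.52, 8.33 and 8.16 in yMSCs P100, a call lost without aMSCs P100 replicate 2 or yMSCs P100 replicate 2 or 3. Of 21 focal adhesion proteins 1 rose and 2 fell (1 and 1 without replicate 2, with a median of -0.20 in place of 0.00), and of 34 actin regulators 5 rose and 3 fell (2 and 3 without replicate 2). Limk1, a kinase that inactivates cofilin, rose by 1.48 (standard error 0.32), and Cttn, cortactin of branched actin, fell by 0.88 (standard error 0.23). Of 10 cadherin and junction genes 4 rose and 3 fell. Beside Cdh11 and Gja1, the lipid-anchored Cdh13 had 9.81, 9.74 and 9.43 in aMSCs P100 and 7.33, 7.49 and 7.22 in yMSCs P100 (log2 difference 2.31, standard error 0.22). F11r, a tight junction adhesion molecule, was at least 1.88-fold lower. The keratins of simple epithelia went opposite ways, with Krt8 at 10.76, 10.38 and 10.46 in aMSCs P100 and 6.21, 6.03 and 6.82 in yMSCs P100 (log2 difference 4.18, standard error 0.19), and Krt7 at 9.44, 9.12 and 9.08 in aMSCs P100 and 11.28, 11.44 and 11.23 in yMSCs P100 (log2 difference -2.11, standard error 0.29).

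Of 26 homeobox and other patterning factors 8 rose and 1 fell, with a median of 0.50, against 11.2% and 10.1% of all genes, and of the 20 detected in both groups 6 rose and 1 fell. Without aMSCs P100 replicate 2 the counts were 7 and 0, and without its replicate 3 there were 3 falls. Prrx1, a homeobox factor of limb mesenchyme, had 9.76, 9.66 and 9.84 in aMSCs P100 and 6.62, 6.64 and 6.71 in yMSCs P100 (log2 difference 3.10, standard error 0.18), and its relative Prrx2 had 1.45. Twist1 rose and Twist2 fell, with 0.84 and -1.23, the second call being lost without replicate 2. Of 21 semaphorin, ephrin and slit genes 9 rose and 4 fell, and of the 13 detected in both groups 2 rose and 3 fell, with a median of -0.02. The falls were 2 without aMSCs P100 replicate 1 or 3 or yMSCs P100 replicate 1 or 2, since the call of Epha2 was among those lost. Slit3, a secreted repellent, had 7.46, 7.54 and 7.39 in aMSCs P100 and 4.39, 4.47 and 4.40 in yMSCs P100 (at least 4.15-fold), and Unc5c, a netrin receptor, was at least 5.59-fold higher. Epha7 was at least 2.54-fold higher, whereas Epha4 and Epha2 were lower. Of 9 imprinted genes, which are expressed from the allele of a single parent, 5 rose and 1 fell, and of the 3 detected in both groups 1 rose. After Igf2, Snrpn had 6.60, 5.79 and 6.68 in aMSCs P100 and 4.30, 4.34 and 4.36 in yMSCs P100 (at least 1.93-fold), and Peg12 was at least 1.28-fold lower. The retinoic acid carriers Crabp1 and Crabp2 rose by 2.53 (standard error 0.31) and 1.96 (standard error 0.22).

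Metabolic lists held single large differences. Of 16 glycolysis genes 3 rose and 3 fell (2 fell and the median was -0.01 in place of 0.09 without aMSCs P100 replicate 2). Among the 14 detected in both groups 1 rose and 3 fell. Slc16a3, the lactate exporter MCT4, had 8.94, 9.12 and 8.80 in aMSCs P100 and 4.78, 4.51 and 4.54 in yMSCs P100 (at least 11.7-fold), and Aldoc, an aldolase, was at least 5.14-fold higher. Both were undetected in yMSCs P100, while the phosphofructokinases differed less. Pfkp, a platelet-type phosphofructokinase, fell by 1.03 (standard error 0.22) and Pfkfb1 by 1.19 (standard error 0.18). Of 18 cholesterol genes 3 rose and none fell (7 and none with median scaling), with a median of 0.54, and 1 rose without aMSCs P100 replicate 1 or yMSCs P100 replicate 1 or 3. Nsdhl, a sterol dehydrogenase, rose by 1.10 (standard error 0.21). Of 18 citric acid cycle genes Idh1 and Sucla2 rose, by 1.42 and 0.81, and none fell. Of 32 lysosome genes 6 rose and 2 fell (10 and none with median scaling, 6 and 1 without aMSCs P100 replicate 2), and of the 27 detected in both groups 2 rose and 2 fell, with the protease Ctsh at least 2.09-fold and Cln3, a membrane protein lost in Batten disease, at least 1.93-fold higher. Of 19 genes of amino acid synthesis and the ATF4 response none rose and 3 fell, the largest being Psph, which completes serine synthesis (-1.11, standard error 0.18). Of 29 proteasome genes 2 fell (1 without aMSCs P100 replicate 2), of 24 ER chaperones 1 rose and 1 fell (none and 1 without it), and of 12 hypoxia genes Adm rose by 1.14 and Vegfa fell. Of 17 water and solute channels, which include Aqp1 and Slc16a3, 2 rose and 2 fell (3 and 2 without replicate 2), the fall of Kcnn4, a calcium-activated potassium channel, being 1.13. Of 11 genes of caveolae and lipid carriers 3 rose and 2 fell, and of the 8 detected in both groups 1 rose and 1 fell.

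The donor age difference was next set against that of earlier passages, which share no array with P100. Over the 8426 genes, 215 (2.55%) were called between aMSCs and yMSCs at P2 and 1485 (17.6%) at P30. The difference at P100 itself differed from that at P2 in 1155 genes (13.7%) and from that at P30 in 1915 (22.7%). The arrays of P2 had a higher signal over background, 6.07 to 7.14, whose part in the comparison with P2 was not tested. Leaving out 1 array of the earlier passages at a time gave 918 to 1148 genes against P2 and 1499 to 2482 against P30. The number called at P30 itself moved by over 1.5 times when 1 aMSCs P30 array was left out, to 941 without replicate 1 and 924 without replicate 2. Of the 944 genes higher at P100, 205 were also higher at P30, 96 were lower and 643 were not called. Of the 853 lower at P100, 151 were also lower at P30, 59 were higher and 643 were not called. Against P2 the same split was 36, 43 and 865 for the rises and 23, 30 and 800 for the falls. Among the 1797 genes, 658 differed by test from both P2 and P30 in the direction of the P100 call, 410 higher and 248 lower. Both tests contain the P100 difference by which the 1797 genes were chosen, so this direction follows in part from the choice.

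A small set kept 1 direction at every passage, 17 genes higher and 16 lower in aMSCs. Aqp1 had log2 differences of 0.64, 4.20 and 8.03 at P2, P30 and P100, and Aox1 had 2.06, 2.09 and 6.07. Sod3 had 1.27, 3.18 and 2.99, and Slc16a3 had 0.86, 4.45 and 4.34. The difference of Aqp1 was larger at each later passage, and those of Sod3 and Slc16a3 were no larger at P100 than at P30. Values near the level of undetected probes depend on the offset, so these differences are fitted values and not folds. Igfbp6, Itgbl1 and C1r were also among the 17. Of the 16, Epha4 had -1.20, -3.43 and -3.35 and Heph, a ferroxidase of iron export, had -1.07, -3.35 and -2.68. Smarca1, a chromatin remodeller, and the LIM protein Csrp2, singled out after their values were seen, had -2.12 and -2.50 at P100.

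A further 24 genes had the opposite direction at P100 from that at both earlier passages, 19 of them higher at P100. Dmp1 had -1.39, -1.54 and 5.40 at P2, P30 and P100, Gas2 had -2.74, -1.20 and 5.80, and Mgst1 had -1.76, -2.02 and 5.13. Slit3 had -2.09, -3.94 and 3.04, Clu had -1.38, -1.67 and 2.89, and Fbn2 had -0.80, -3.31 and 2.72. These genes were lower in aMSCs than in yMSCs at P2 and P30 and higher at P100. The other named examples, chosen after their values were seen, include Gas6, a ligand of TAM receptors (-2.08, -2.03 and 2.80), and Rgs2, which restrains G protein signalling (-2.34, -3.06 and 2.24). Fgf2, the basic fibroblast growth factor, went the other way with 0.79, 0.95 and -1.09. Cyba, the largest fall at P100, had -0.16 at P2 and 0.82 at P30, and Wfdc1 had 0.97 and -3.39.

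**Figure D4:**
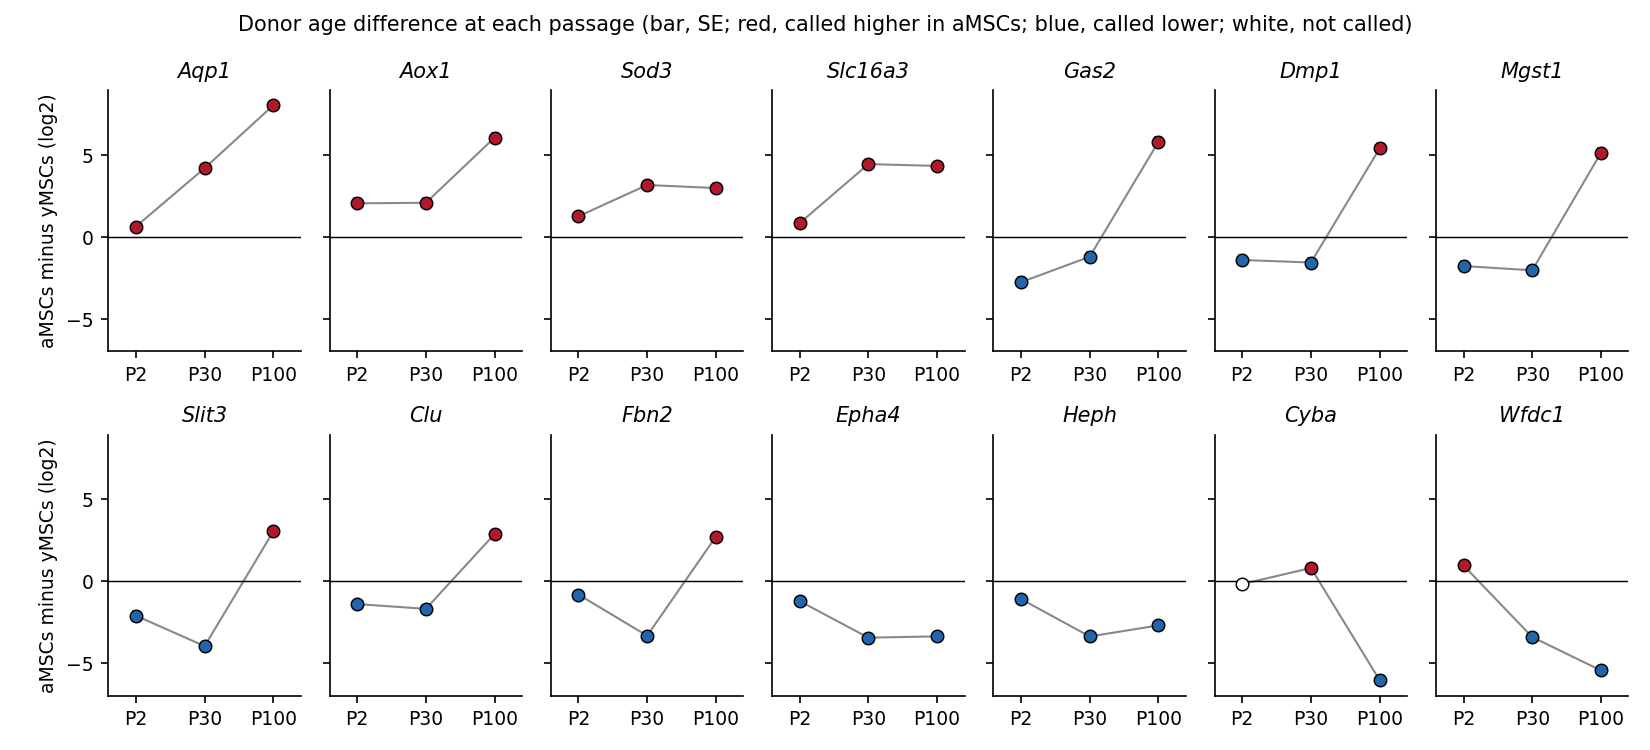
Log2 difference between aMSCs and yMSCs (y axis) of 14 genes at P2, P30 and P100, in red where called higher in aMSCs, blue where called lower and white where not called, with standard errors that are mostly smaller than the symbols. Aqp1 stays above 0 throughout, Gas2, Dmp1, Mgst1, Slit3, Clu and Fbn2 lie below 0 at P2 and P30 and above it at P100, and Cyba drops to -6.02 at P100.

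By position, 6071 named genes were placed on 21 chromosomes of GRCr8. Chromosome 13 had the highest median log2 difference at P100, 0.18 over 171 genes, of which 35 rose (20.5%) and 13 fell (7.6%). Its median was 0.01 at P2 and 0.17 at P30. Chromosome 1 had the lowest, -0.11 over 772 genes, of which 74 rose (9.59%) and 120 fell (15.5%), with 0.16 at P30. Chromosome 6 had 0.10 at P100 and -0.32 at P30. On all 3 aMSCs P100 arrays the median of chromosome 13 was above that of yMSCs P100, by 0.21, 0.31 and 0.15. All other chromosomes had medians between -0.09 and 0.08 at P100. In 242 windows of 25 neighbouring genes the medians ran from -0.50 to 0.43, and 207 lay within 0.2 of 0. The chromosomes described were singled out after their values were seen, and no test was run.

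**Figure D5:**
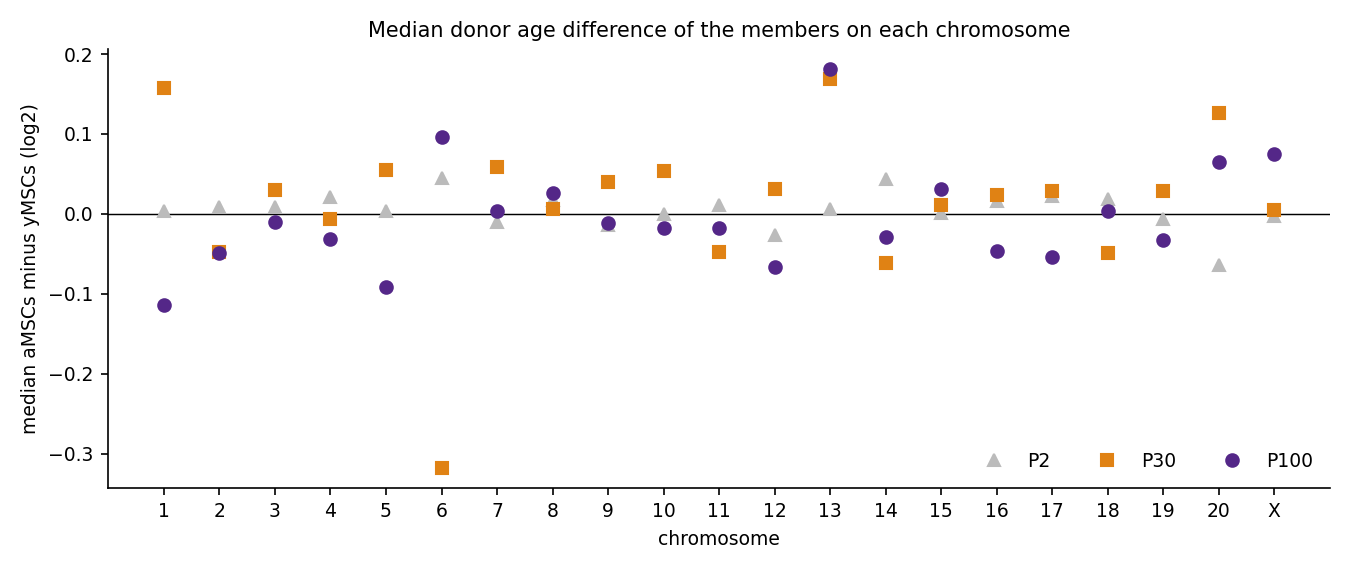
Median log2 difference between aMSCs and yMSCs of the named genes on each chromosome (x axis) at P2 (triangles), P30 (squares) and P100 (circles). At P100 chromosome 13 stands highest at 0.18 and chromosome 1 lowest at -0.11, and at P30 chromosome 6 stands at -0.32.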

How the data were processed

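RNA was read on 18 Illumina RatRef-12 BeadChip arrays, 3 for each donor age and passage. The authors deposited bead intensity and a detection p-value for each probe from BeadStudio 3 (per the submitters' processing notes), and a second table of background-subtracted, rank invariant intensity, used here as an alternative. The deposited intensity was corrected with normexp from the detection p (offset 16), turned to log2 and quantile normalized in limma 3.58.1 (R 4.3.3), which compresses differences of dim genes. A gene was its brightest probe, named through Entrez IDs in RefSeq GRCr8. A probe without a symbol counted as a gene of its own. A linear model with 6 group means and moderated variances was fitted over 9531 genes with a mean detection p of at most 0.01 in any group, with Benjamini-Hochberg adjustment over all of them. A call needed an adjusted p under 0.05 and a fold of at least 1.5. The number of arrays limits the precision.

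The members and gene lists were chosen with earlier results of these data known. Named genes were first the 15 largest rises and falls among called genes whose arrays did not overlap between the P100 groups. To these came the 5 brightest calls and the 6 brightest genes of 1 group in each direction. Up to 2 rises and 2 falls of each list and genes the study followed by other assays completed them. Other list members were named after their values were seen. For those, leaving out single arrays was not run gene by gene. Between arrays of equal replicate number, deviations from the group means correlated by 0.01, -0.01 and 0.08, which gave no sign of a pairing by these numbers. Counts over genes detected in both P100 groups were added after the data were seen. Scripts were tested on simulated data.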

Additional observations from a re-analysis of the deposited data

Results flagged for a closer look

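The donor age difference at P100 differed from that at P30 in 1915 genes and from that at P2 in 1155 genes by limma's test of the difference itself. The 196 named genes were chosen by rules that favour called genes, and 175 of them were called at P100. Of the 196, 126 passed against P30 and 126 against P2, where 22.7% and 13.7% of all 8426 genes did. These larger shares follow in part from the choice. Of the named genes, 8 were called in the opposite direction at P100 and at both earlier passages. Gas2, Slit3, Fbn2 and Lpl were undetected on every yMSCs P100 array, so their values below are fitted against signals not above the negative beads, depend on the offset and are not folds. In log2 units the fitted P100 difference minus that at P30 was 7.15 for Mgst1, 7.0 for Gas2, 6.99 for Slit3, 6.95 for Dmp1, 6.03 for Fbn2, 4.71 for Lpl, 4.56 for Clu and 1.76 for Fgf7. Minus that at P2 it was 8.55 for Gas2, 6.89 for Mgst1, 6.8 for Dmp1, 5.13 for Slit3, 4.27 for Clu, 3.52 for Fbn2, 3.1 for Lpl and 2.4 for Fgf7. All 8 kept these calls when any 1 array of P2 or P30 was left out. The call at P30 itself was lost for Fgf7 without aMSCs P30 replicate 1 or 2, and the call at P2 for Fbn2 without any 1 of 5 of the 6 P2 arrays. No search for outlying values was made within groups of 3 arrays. Array weights estimated from the fit were lowest for yMSCs P30 replicate 1 (0.139), aMSCs P100 replicate 2 (0.183) and aMSCs P30 replicate 3 (0.192), against 0.616 to 3.663 for the others.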

How the results depend on the processing

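The counts of rises and falls stayed within 1.5 times of 944 and 853 under the authors' values (890 and 855), an offset of 50 (698 and 636), plain background subtraction, fits on fewer arrays, no moderation, array weights and other detection rules. The falls did not under median scaling (505) or no normalization between arrays (500), both of which shift the median of all genes. A fold of at least 2 gave 469 rises, 326 falls and 1175 genes against P30. Array weights gave 2186 genes against P2 and 3097 against P30, and the cause was not tested. Leaving out single P100 arrays gave 820 to 1032 rises and 706 to 1065 falls. Leaving out single arrays of any passage gave 918 to 1254 genes against P2 and 1499 to 2482 against P30, where arrays of P2 and P30 were added after seeing the data, as were list counts without aMSCs P100 replicate 2. Genes detected in aMSCs P100 only and in yMSCs P100 only numbered 422 and 61 with a limit of 0.01 in the other group, 297 and 63 by mean detection p, and 180 to 209 and 29 to 33 without single arrays. With the replicate number as a block, rises and falls were 943 and 842, and genes against P2 and P30 were 1078 and 1787. In this fit 2 of 196 named genes lost a call, and a pairing under another numbering was not tested. Of these 196 genes, 185 kept direction and call with the authors' values, 179 with an offset of 50 and 167 with median scaling. Tests against earlier passages could not be had from the 6 P100 arrays, nor against P2 from 12 arrays.

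Among named genes, changes of sign were limited to uncalled genes near 0. The median of 16 of 55 gene lists changed sign under at least 1 setting, all with a size of at most 0.164, among them other matrix glycoproteins (0.09, and -0.06 at the lowest) and growth factors (-0.16, and 0.11 at the highest), and that of all 8426 genes went to 0.11 with median scaling. With median scaling the log2 differences of Bmpr2, Cd44 and Myl9 were 0.129, 0.0615 and 0.0449, without normalization 0.128, 0.0608 and 0.0442, and that of Myl9 was 0.0766 with array weights. Without single arrays Bmpr2 ranged from -0.286 to 0.202, Cd44 from -0.280 to 0.0546, Cnn1 from -0.127 to 0.164, Itgb1 from -0.328 to 0.241, Myl9 from -0.206 to 0.0880 and Myocd from -0.0580 to 0.359. Dim genes are the limit of these arrays, since a signal under the negative beads gives only a bound.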
